A study of Homo sapiens with 9 samples.

Results

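The 10 BCL2 family genes described here were followed in PANC-1, an established human cell line grown from a carcinoma of the pancreas. Of them 7 encode BH3-only proteins (BBC3, PMAIP1, BCL2L11, BMF, BIK, BAD and BID) and 3 encode survival proteins (MCL1, BCL2L1 and BCL2A1). They were chosen by symbol among 57820 GENCODE features in a table of 112171 features, and all 10 were found once. Cultures of every group spent 12 h in hypoxia in medium that held rakicidin A at 42 nM, BE-43547A1 at 41 nM or the solvent DMSO at 0.04%. Each group had 3 libraries of total RNA, 9 in all. The cells of all groups were hypoxic and none was kept in normal oxygen. Rakicidin A is a bacterial depsipeptide known for its toxicity to hypoxic cancer cells. The doses of the compounds differed slightly, and the labels do not state how much DMSO the treated cultures received. The labels name no separate cultures, so the p-values reflect the spread between libraries, which may be technical, and they concern 1 cell line.

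The BCL2 family governs the permeability of the outer mitochondrial membrane, through which cytochrome c leaves to start caspase activation. Survival proteins hold the pore formers BAX and BAK in check. BH3-only proteins bind the groove of the survival proteins, or BAX and BAK directly, and so favour cell death. Several BH3-only genes are switched on by transcription factors of the endoplasmic reticulum stress and FOXO pathways.

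Counts on features came to 26203326 to 45048999 per library, with the deepest libraries after BE-43547A1. Levels are in CPM, a gene's count relative to its library's size after TMM scaling. All 8 ductal and epithelial markers had counts in every library, with a summed level of 2982 to 3155 CPM in DMSO, 2564 to 2679 CPM after rakicidin A and 3511 to 3784 CPM after BE-43547A1. One DMSO library, replicate 3, differed from the other two in the nuclear RNA MALAT1, at 8879 CPM against 4924 and 5003 CPM (6658 to 7287 CPM with rakicidin A, 10369 to 11691 CPM with BE-43547A1), and in the share of counts on 13 mitochondrially encoded genes, at 0.505% against 0.282 and 0.329%. Calls that depended on that library are given with and without it, and what sets it apart was not tested. TMM left the median log2 change of the 22353 tested features at -0.023 for rakicidin A and near 0 for BE-43547A1. Scaling by total counts alone moved these medians to -0.380 and -0.237, so small changes are relative to the typical feature.

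Against DMSO, rakicidin A was accompanied by higher PMAIP1, BBC3, MCL1 and BCL2A1 and by lower BCL2L11, BMF and BID. BE-43547A1 was accompanied by higher levels of the first 4 and by lower BMF, BID and BCL2L1. A gene was called at a Benjamini-Hochberg adjusted p below 0.05 in edgeR's quasi-likelihood test, adjusted over all tested features. Enough counts for a test were found for 9 of the 10 members, all except BIK. After rakicidin A 4 members were higher and 3 lower, where 31.9% of all tested features were higher and 32.7% lower. After BE-43547A1 4 were again higher and 3 lower, where 35.3% of features were higher and 35.1% lower. With so many features called, these counts were near the background, and what follows describes the size of each change. With total counts alone, calls over all features turned to 4477 higher and 11392 lower for rakicidin A, against 7141 and 7314, and to 5951 and 10450 for BE-43547A1, against 7898 and 7840. By that scaling 4 members were higher and 5 lower after rakicidin A, and after BE-43547A1 4 were higher and 4 lower. Both comparisons share the DMSO libraries.

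**Figure D1:**
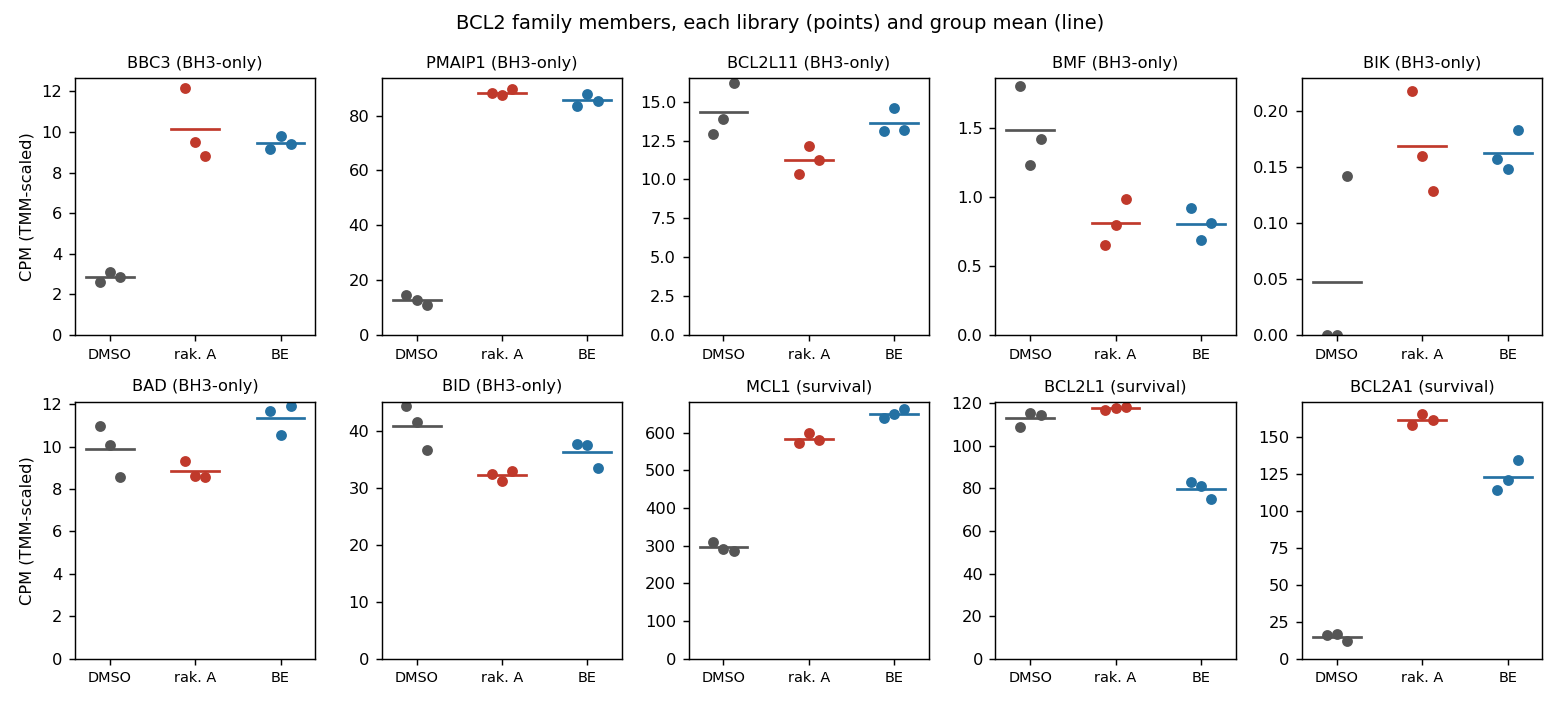
TMM-scaled CPM (vertical axes, from 0) of the 10 members in each of 9 libraries, by group, with the group mean as a line. PMAIP1, MCL1 and BCL2A1 in all 6 treated libraries lay far above DMSO, BCL2L1 was low only in the BE-43547A1 libraries (75.2 to 83.1 CPM), and BIK reached at most 0.218 CPM.

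Levels were first compared per length, as CPM per kb of exon, since longer transcripts collect more reads. In DMSO MCL1 led at 67.7 ± 2.63 CPM per kb (SD, n = 3), followed by BCL2L1 at 34.1 ± 1.07 and BCL2A1 at 13.7 ± 2.56. BID reached 9.21 ± 0.877, the highest of the BH3-only genes. BAD at 5.78 ± 0.716 and PMAIP1 at 5.75 ± 0.799 CPM per kb did not differ beyond their spread, and BCL2L11 (2.15 ± 0.255), BBC3 (0.901 ± 0.0786), BMF (0.273 ± 0.0535) and BIK (0.0497 ± 0.0861) came last. Per length, the survival genes of this set thus stood above each of its BH3-only genes in the solvent control. In CPM not divided by length, BID at 40.9 stood above BCL2A1 at 14.9 in DMSO. The lengths join all annotated exons of a gene from a later annotation, and the SDs leave out any error in them. Outside the set, the survival gene BCL2L2 (7.63 ± 0.269 CPM per kb) and BCL2 itself (0.0212 ± 0.0102) lay below BID. The order changed with both compounds. PMAIP1 moved up past BAD, BID and BCL2L1, at 39.5 ± 0.517 CPM per kb with rakicidin A and 38.3 ± 1.01 with BE-43547A1, where BCL2L1 stood at 35.5 ± 0.247 and 24.1 ± 1.25. BCL2A1 reached 148 ± 3.67 CPM per kb after rakicidin A, above MCL1 at 134 ± 3.20, with no overlap of the libraries. In CPM not divided by length, MCL1 at 584 stood above BCL2A1 at 162 after rakicidin A. That crossing therefore rests on the exon lengths. PMAIP1 likewise stood below BCL2L1 in CPM after rakicidin A (88.4 against 118), but above it after BE-43547A1 (85.7 against 79.8). After BE-43547A1 BCL2A1 stood at 113 ± 9.54 and MCL1 at 149 ± 2.80 CPM per kb.

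PMAIP1 made up 23.8 ± 1.31% of the summed level per length of the 7 BH3-only genes in DMSO, 69.2 ± 0.970% with rakicidin A and 65.5 ± 0.824% with BE-43547A1 (SD, n = 3 libraries each). MCL1 fell as a share of the 3 survival genes, from 58.6 ± 1.47% in DMSO to 42.1 ± 0.120% with rakicidin A and 52.0 ± 1.03% with BE-43547A1. These shares do not depend on the scaling of the libraries, but they rest on exon lengths from a later annotation than the counts.

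**Figure D2:**
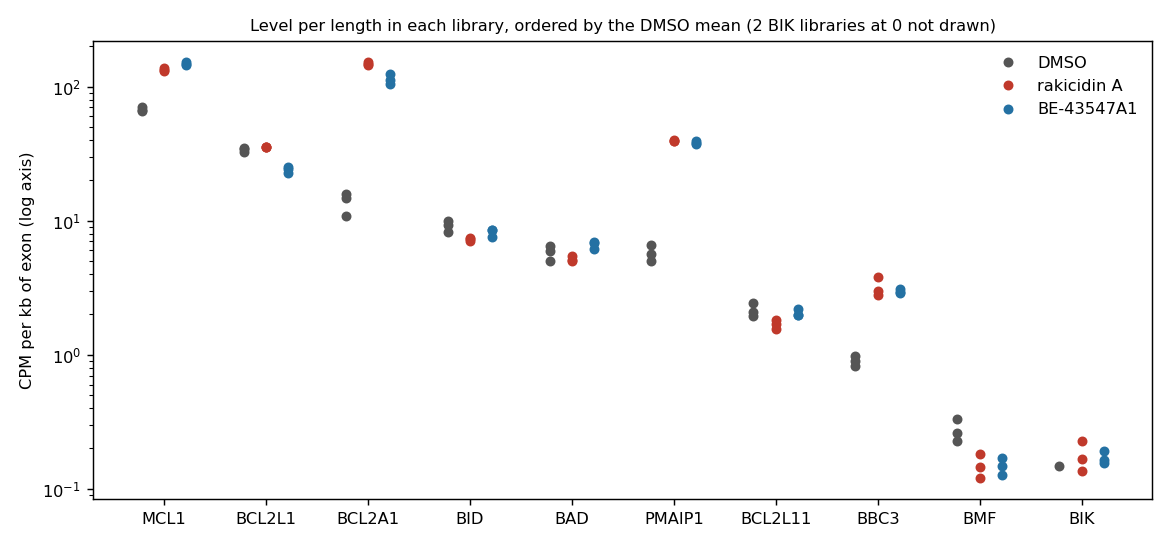
CPM per kb of exon (log axis) of the 10 members in each library, ordered by the DMSO mean. PMAIP1 lay in the range of BAD in DMSO and above BCL2L1 in the 6 treated libraries, while BCL2A1 lay above MCL1 with rakicidin A and below it with BE-43547A1. The order of genes depends on the exon lengths used.

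The BH3-only gene with the largest change was PMAIP1, which encodes NOXA, a protein that binds MCL1 and BCL2A1. It stood at 14.7, 12.7 and 11.1 CPM in the DMSO libraries, at 88.2, 87.3 and 89.6 CPM after rakicidin A and at 83.5, 88.0 and 85.4 CPM after BE-43547A1. Every treated library lay far above the highest DMSO library, and the treated groups overlapped each other. The log2 fold change was 2.78 ± 0.08 (± SE, edgeR adjusted p = 6.62e-16) for rakicidin A and 2.74 ± 0.08 (adjusted p = 9.23e-16) for BE-43547A1, in 3 of 3 libraries each.

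BBC3 encodes PUMA, a BH3-only protein that binds all survival proteins of the family. Its level was low in DMSO, at 2.63, 3.13 and 2.84 CPM. It reached 12.2, 9.53 and 8.81 CPM after rakicidin A, with replicate 1 the highest of the 9 libraries, and 9.15, 9.78 and 9.41 CPM after BE-43547A1. No treated library overlapped DMSO. The log2 fold change was 1.83 ± 0.13 (adjusted p = 4.17e-10) for rakicidin A and 1.72 ± 0.13 (adjusted p = 6.93e-10) for BE-43547A1 by edgeR.

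Promoter sequences of the genes with the largest rises are shown because these genes moved together. They come from RefSeq windows on GRCh38.p14 that span 250 bases before to 50 after an annotated start. Windows were matched for 8 of the 10 members, 15 windows in all, not for BIK and MCL1. Both strands were searched for TGATGNAA (the composite site of CHOP and ATF4), TGACGTCA (the cyclic AMP response element), TGANTCA (AP-1), GGGNNTTCC (NF-kB) and ACGTG (the core of the hypoxia response element). Of 34943 windows in the table, 3.62, 1.84, 7.72, 6.57 and 21.4% held these letters, in that order. The stretches below are the 150 bases before the start, in gene direction, with matches in capitals: PMAIP1 at chr18:59899846-59899995 (+ strand), BCL2A1 at chr15:79971197-79971346 (- strand) and BBC3 at chr19:47232668-47232817 (- strand).
PMAIP1: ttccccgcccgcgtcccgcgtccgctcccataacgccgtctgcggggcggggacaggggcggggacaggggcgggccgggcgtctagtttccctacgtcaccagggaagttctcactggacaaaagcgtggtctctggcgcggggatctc
BCL2A1: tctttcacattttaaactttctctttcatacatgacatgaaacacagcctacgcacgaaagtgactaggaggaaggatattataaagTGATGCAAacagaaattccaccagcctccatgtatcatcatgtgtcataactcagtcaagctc
BBC3: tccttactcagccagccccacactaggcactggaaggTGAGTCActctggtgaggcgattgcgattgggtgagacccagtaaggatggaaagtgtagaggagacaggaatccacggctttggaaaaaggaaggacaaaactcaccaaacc

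The BCL2A1 window held TGATGCAA, a match to the composite site of CHOP and ATF4, beginning 63 bases before the start. The BBC3 window held TGAGTCA, a match to AP-1, 113 bases before the start. Farther upstream it held the hypoxia core on both strands at 1 site, as overlapping matches beginning 231 and 232 bases before the start. None of the 5 sets of letters was in the PMAIP1 window. Of the other members, only BID had a match, to the hypoxia core on both strands at 1 site, which lay in 2 overlapping windows of its 5, and to NF-kB in 1 of them. A match describes letters in the reference, and no binding was measured here.

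BCL2L11, BMF and BID went the other way after rakicidin A. BCL2L11 encodes BIM, which binds all survival proteins and activates BAX. It stood at 12.9, 13.9 and 16.2 CPM in DMSO, at 10.4, 12.1 and 11.3 CPM after rakicidin A and at 13.1, 14.6 and 13.1 CPM after BE-43547A1. The rakicidin A libraries all lay below DMSO, and the BE-43547A1 libraries lay within the DMSO range. The log2 fold change was -0.35 ± 0.10 (edgeR adjusted p = 0.00455) for rakicidin A. DMSO replicate 3 was the highest library, and without it the value was -0.25 (adjusted p = 0.0256). For BE-43547A1 it was -0.076 (adjusted p = 0.482), with a 95% interval of -0.272 to 0.121. Without DMSO replicate 3 this value was 0.015 (adjusted p = 0.889), and with total counts alone -0.31 (adjusted p = 0.00654). In the later annotation the span of the noncoding gene MIR4435-2HG, on the opposite strand, overlaps that of BCL2L11. It had 9640 counts over the 9 libraries against 4032 for BCL2L11. The spans include introns, and whether the 2 genes share exons was not examined. Entries ambiguous between features, 2.65 to 2.94% per library, were left out of the counts. Whether the counting used the strand is not known.

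BMF, a BH3-only protein tied to the cytoskeleton, was among the least abundant members. It stood at 1.80, 1.23 and 1.42 CPM in DMSO, at 0.655, 0.799 and 0.988 CPM after rakicidin A and at 0.922, 0.692 and 0.810 CPM after BE-43547A1. Each treated library lay below each DMSO library. With 148, 66 and 100 counts in the 3 groups, the log2 fold change was -0.88 ± 0.24 (edgeR adjusted p = 0.00311) for rakicidin A and -0.87 ± 0.22 (adjusted p = 0.00159) for BE-43547A1.

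BID is cut by caspase 8 and links death receptors to the mitochondrion. It stood at 44.4, 41.7 and 36.7 CPM in DMSO and at 32.5, 31.3 and 32.99 CPM after rakicidin A, all below DMSO. The log2 value was -0.34 ± 0.07 with an edgeR adjusted p of 5.50e-04. After BE-43547A1 it stood at 37.7, 37.7 and 33.5 CPM, which overlapped the DMSO libraries. The value of -0.17 ± 0.07 (adjusted p = 0.0412) passed narrowly, and the call was lost in 11 of 16 alternatives, whose adjusted p ranged up to 0.235 (without BE-43547A1 replicate 3). Leaving out either of DMSO replicates 1 and 2, any 1 rakicidin A library or any 1 BE-43547A1 library ended it.

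BAD, which binds BCL2L1 and is held inactive by phosphorylation, did not pass against DMSO with either compound. It stood at 10.97, 10.1 and 8.55 CPM in DMSO, at 9.32, 8.63 and 8.55 CPM after rakicidin A and at 11.65, 10.5 and 11.9 CPM after BE-43547A1. Both treated groups overlapped DMSO. The log2 difference was -0.16 (95% interval -0.375 to 0.060, edgeR adjusted p = 0.192) for rakicidin A and 0.21 (-0.00026 to 0.411, adjusted p = 0.0692) for BE-43547A1. DMSO replicate 3 was the lowest of its group, and without it BAD was called lower after rakicidin A (-0.25, adjusted p = 0.0314), as it was with total counts alone (-0.52, adjusted p = 2.58e-04). After BE-43547A1 BAD was called higher without DMSO replicate 1 (0.28, adjusted p = 0.0230) or BE-43547A1 replicate 2 (0.27, adjusted p = 0.0361). Without DMSO replicate 3 that value was 0.10 (adjusted p = 0.344). Its sign there changed with total counts alone, at -0.032 (adjusted p = 0.783). GPR137, whose span overlaps that of BAD on the opposite strand in the later annotation, had 5550 counts against 3104 for BAD. Whether they share exons was not examined.

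BIK, a BH3-only protein of the endoplasmic reticulum, was close to undetected. It had 0, 0 and 5 counts in DMSO, 6, 5 and 3 with rakicidin A and 7, 6 and 7 with BE-43547A1. DMSO replicate 3 was thus at the level of the treated libraries, and a difference was not detectable at this depth. Fitted without the filter on low counts, its edgeR adjusted p was 0.101 for rakicidin A and 0.0726 for BE-43547A1.

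Among the survival genes MCL1, whose protein is short-lived and holds BAK in check, was the most abundant in CPM. It stood at 309, 292 and 287 CPM in DMSO, at 571, 599 and 581 CPM after rakicidin A and at 638, 649 and 662 CPM after BE-43547A1. The 3 groups did not overlap. The log2 fold change was 0.98 ± 0.05 (edgeR adjusted p = 7.42e-12) for rakicidin A and 1.13 ± 0.05 (adjusted p = 9.13e-13) for BE-43547A1. Total counts alone gave 0.62 and 0.90, both still called.

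BCL2A1 encodes BFL-1, a survival protein known mainly from blood cells and as a target of NF-kB, and it had the largest change of the 9 tested. It rose from 15.96, 17.1 and 11.8 CPM in DMSO to 158, 166 and 161 CPM after rakicidin A and to 114, 121 and 134 CPM after BE-43547A1. The 3 groups did not overlap, with DMSO replicate 3 the lowest library. The log2 fold change was 3.44 ± 0.10 (edgeR adjusted p = 1.12e-15) for rakicidin A, a 10.8-fold rise, and 3.05 ± 0.10 (adjusted p = 5.43e-15), 8.26-fold, for BE-43547A1. The 8 leukocyte markers summed to 1.68 to 2.05 CPM in DMSO, 1.69 to 2.15 CPM after rakicidin A and 3.19 to 3.85 CPM after BE-43547A1. PTPRC had at most 3 counts in any library and CD3E had 0 in all 9. Of the 8, CD14 and ITGAM had enough counts to be tested and were higher after BE-43547A1, CD14 at 0.565 CPM against 0.120 and ITGAM at 2.46 against 1.54 CPM. Neither marker passed after rakicidin A. The part of leukocyte markers in the BCL2A1 result was not tested.

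BCL2L1, which encodes BCL-XL, was called in 1 comparison with DMSO only. It stood at 109, 115 and 115 CPM in DMSO, at 117, 118 and 118 CPM after rakicidin A and at 83.1, 81.1 and 75.2 CPM after BE-43547A1. The BE-43547A1 libraries lay below all others, and the rakicidin A libraries narrowly above DMSO. The log2 fold change was -0.50 ± 0.06 (edgeR adjusted p = 1.94e-07) for BE-43547A1. For rakicidin A it was 0.059 (95% interval -0.057 to 0.174, adjusted p = 0.364) under TMM, but -0.30 (adjusted p = 1.22e-04) with total counts alone, so its direction rests on the scaling.

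**Figure D3:**
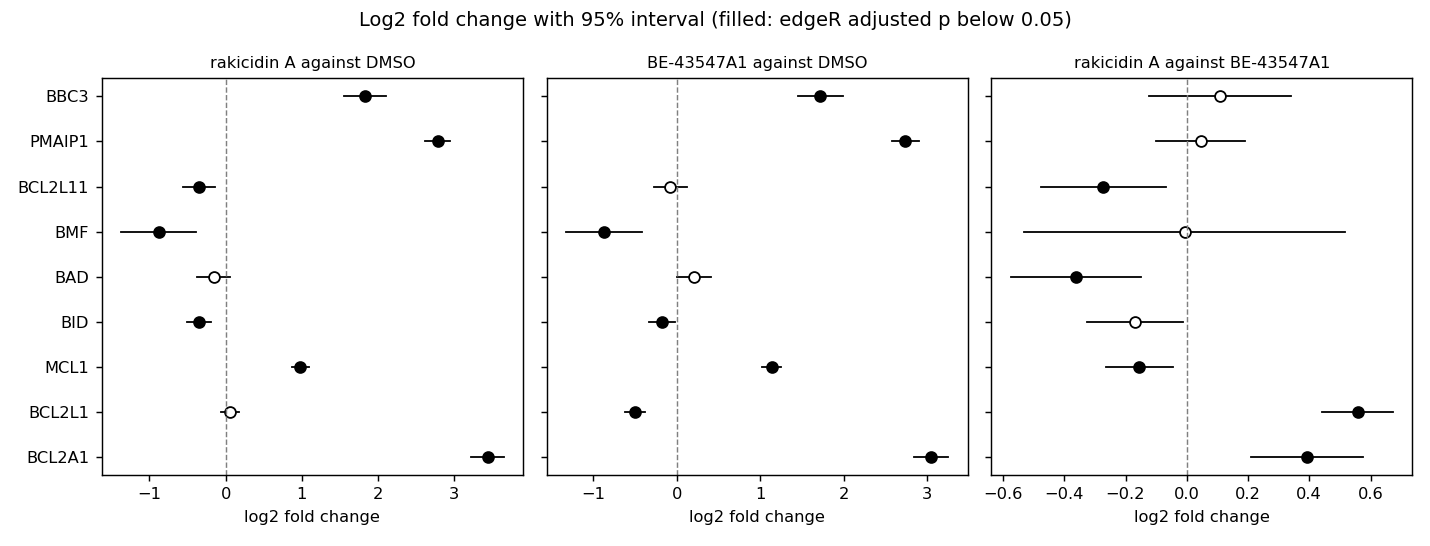
Log2 fold change (horizontal axes, which differ in range) with its 95% interval for the 9 tested members in each comparison. Filled points passed at an edgeR adjusted p below 0.05, and in the direct comparison only BCL2L1 (0.56) and BCL2A1 (0.39) lay above 0 as filled points.

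The direct comparison of rakicidin A with BE-43547A1 asked where the compounds differed, at 42 against 41 nM. Rakicidin A left BCL2L1 and BCL2A1 higher and BCL2L11, BAD and MCL1 lower. These were 2 higher and 3 lower members of 9, where 24.1% of tested features were higher and 22.5% lower. By total counts alone the split over all features was 3923 higher and 6868 lower, against 5387 and 5036. BCL2L1 was 0.56 ± 0.06 higher on the log2 scale (edgeR adjusted p = 1.99e-07) and BCL2A1 0.39 ± 0.09 higher (adjusted p = 0.00116), with no overlap of the libraries. Both kept their call in each of 16 alternatives, as did BAD at -0.36 ± 0.10 (adjusted p = 0.00641).

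The other differences were smaller and less firm. MCL1 differed by -0.16 ± 0.05 (edgeR adjusted p = 0.0199), a call lost without rakicidin A replicate 1 or 3 (adjusted p = 0.0977 and 0.0875) or BE-43547A1 replicate 2 or 3 (0.0567 and 0.0644). BCL2L11 differed by -0.27 ± 0.10 (adjusted p = 0.0280), lost without rakicidin A replicate 1 or 3 (0.148 and 0.0800) or BE-43547A1 replicate 2 (0.125). Without any 1 of rakicidin A replicates 1 and 3 and BE-43547A1 replicate 2, 3 members were called in place of 5. The share of all features called fell as well, from 46.6% to 39.2, 37.0 and 38.8% in that order. BID did not pass (-0.17, interval -0.327 to -0.013, adjusted p = 0.0701), but did without DMSO replicate 3 (adjusted p = 0.0293) or BE-43547A1 replicate 3 (0.0331), with total counts alone (0.00400) and in a fit of the 6 libraries alone (0.0178).

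PMAIP1 and BBC3 did not pass between the compounds. For PMAIP1 the log2 difference was 0.045, with a 95% interval of -0.099 to 0.189 (edgeR adjusted p = 0.624), and for BBC3 0.108, with an interval of -0.125 to 0.340 (adjusted p = 0.452). The interval for BMF was wide, -0.531 to 0.518, around -0.0067 (adjusted p = 0.986). Scaled by total counts alone, the signs for PMAIP1 (-0.075) and BBC3 (-0.012) changed, and neither passed.

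Ratios of 2 genes within a library do not depend on library scaling, and were taken for 3 pairs of proteins known to bind each other. Each pair holds PMAIP1 or BBC3, the 2 BH3-only genes called higher against DMSO. Other binding pairs, such as those of BCL2L11 or BAD, were not taken. The ratios therefore do not describe BH3-only over survival genes in general. PMAIP1 counts were 0.0476, 0.0435 and 0.0389 of MCL1 counts in DMSO, 0.154, 0.146 and 0.154 with rakicidin A and 0.131, 0.136 and 0.129 with BE-43547A1. The 3 groups did not overlap. The log2 ratio was higher by 1.81 after rakicidin A and by 1.61 after BE-43547A1 than in DMSO, where its mean was -4.53 ± 0.147 (SD, n = 3). It was 0.20 higher after rakicidin A than after BE-43547A1.

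BBC3 counts were 0.0242, 0.0271 and 0.0248 of BCL2L1 counts in DMSO, 0.104, 0.0810 and 0.0744 with rakicidin A and 0.110, 0.121 and 0.125 with BE-43547A1. The log2 ratio was higher than in DMSO by 1.76 and 2.23, and 0.47 lower after rakicidin A than after BE-43547A1. The pair of PMAIP1 and BCL2A1 went the other way, because BCL2A1 rose more than PMAIP1. PMAIP1 counts were 0.921, 0.743 and 0.945 of BCL2A1 counts in DMSO, 0.559, 0.527 and 0.556 with rakicidin A and 0.733, 0.726 and 0.635 with BE-43547A1. The log2 ratio differed from DMSO by -0.66 and -0.31, and by -0.35 between the compounds. In all 9 comparisons of ratios the groups did not overlap and the exact two-sided permutation p was 0.10, the smallest that 3 against 3 libraries allow, also after adjustment over the 9. For PMAIP1 over BCL2A1 the gap was narrow, with 0.743 the lowest in DMSO and 0.733 the highest with BE-43547A1. The comparisons share libraries, and how often other pairs of genes separate was not examined.

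**Figure D4:**
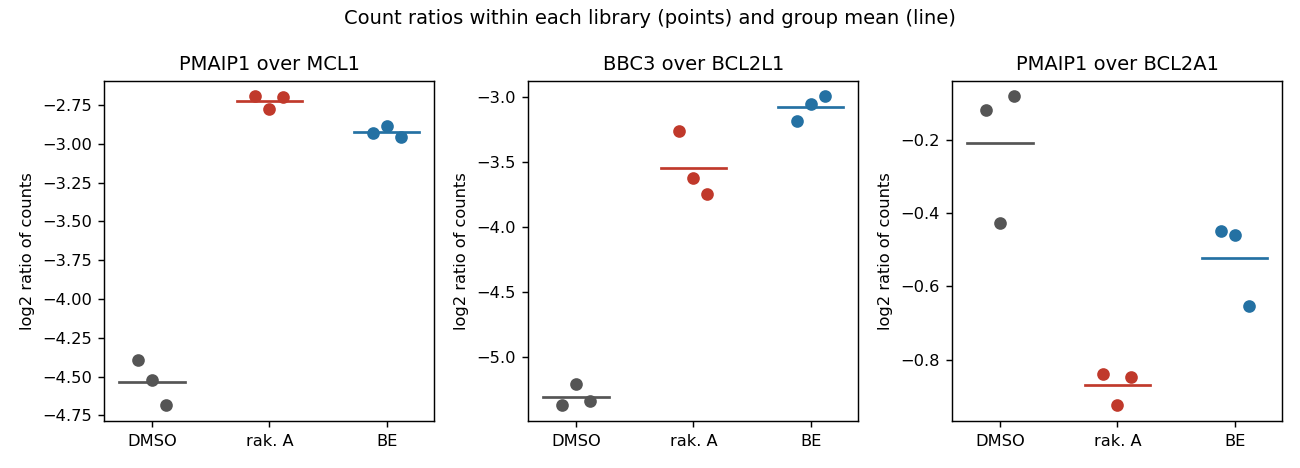
Log2 ratio of the counts of 2 genes in each library (points) with the group mean (line), for 3 pairs on separate vertical axes. PMAIP1 over MCL1 and BBC3 over BCL2L1 lay higher in all treated libraries than in DMSO, and PMAIP1 over BCL2A1 lay lower.

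Of the rest of the family, 10 of 13 genes had enough counts to be tested. After rakicidin A 4 were higher and 3 lower (median log2 change 0.28, against -0.023 over all features), where 31.9% and 32.7% of all features were called. After BE-43547A1 6 were higher and 2 lower (median 0.34), where 35.3% and 35.1% of all features were called. Scaled by total counts alone these became 3 and 5 (median -0.075) and 3 and 3 (median 0.107). BAK1, a pore former, rose from 8.04 to 12.2 CPM after rakicidin A (0.60 ± 0.10, edgeR adjusted p = 2.61e-05) and to 11.1 CPM after BE-43547A1 (0.47 ± 0.10, adjusted p = 2.48e-04). BAX, the other pore former, stood at 10.76 CPM in DMSO and 10.77 CPM after rakicidin A, where it did not pass (0.0016, adjusted p = 0.990, but -0.36 and adjusted p = 0.00450 with total counts alone). It rose to 15.2 CPM after BE-43547A1 (0.50 ± 0.09, adjusted p = 9.92e-05).

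BCL2L13, a mitochondrial relative, rose with both compounds (0.65 ± 0.05 and 0.72 ± 0.05). BNIP3, a hypoxia-induced gene of mitophagy, rose by 0.55 ± 0.07 after rakicidin A and by 0.22 ± 0.07 after BE-43547A1, the latter -0.020 with total counts alone, while its relative BNIP3L fell by 0.13 and 0.31. The BH3-only gene HRK, below 1 CPM in each group mean, was higher by 0.87 ± 0.35 and 0.96 ± 0.33, calls that total counts alone ended, and its BE-43547A1 libraries overlapped DMSO. BCL2L2, a survival gene, did not pass after rakicidin A (0.11, adjusted p = 0.149, but -0.24 and adjusted p = 0.00289 with total counts alone) and rose after BE-43547A1 (0.19), lost with total counts alone (-0.044). BOK fell with both (-0.35 and -0.27) and BCL2L12 after rakicidin A (-0.49). BCL2 itself was nearly silent, at 0.25 CPM in DMSO, 0.353 CPM after rakicidin A and 0.383 CPM after BE-43547A1, and did not pass. BCL2L10, BCL2L14 and BCL2L15 were too low to test.

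Of the genes of the apoptosome and the caspases, which act before or after the mitochondrion, 11 of 12 were tested. After rakicidin A 5 were higher and 4 lower (all features 31.9% and 32.7%), and after BE-43547A1 5 and 5 (35.3% and 35.1%), with 4 and 5 and 4 and 6 by total counts alone. Between the compounds 9 were higher after rakicidin A and 1 lower (all features 24.1% and 22.5%), with 6 and 1 by total counts alone. By the larger of the changes with either compound, those at the top were falls of CASP6 (-1.38 ± 0.13 and -1.76 ± 0.12) and CASP2 (-1.02 ± 0.10 and -1.54 ± 0.10) and a rise of CASP9, the caspase of the apoptosome (1.26 ± 0.16 and 0.82 ± 0.16). Of 6 enzymes of ubiquitin turnover known for MCL1 and its relatives, 3 were higher and 1 lower after rakicidin A, and 2 higher and 3 lower after BE-43547A1, against the same shares of all features. By total counts alone 4 were lower and none higher after rakicidin A, and 4 lower and 1 higher after BE-43547A1. HUWE1, a ligase of MCL1, was higher by 0.47 ± 0.07 with both compounds, and by total counts alone did not pass after rakicidin A (0.11). USP9X, which stabilises MCL1, was higher by 0.32 and 0.21, values that turned to -0.042 and -0.024 by total counts alone. USP13 fell by 0.87 and 0.68.

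Of 10 transcription factors known to act on family members, 8 were higher after rakicidin A and 7 were higher after BE-43547A1 by edgeR (median log2 change 1.95 and 1.65), where 31.9% and 35.3% of all features were higher, and the rest did not pass. Scaling by total counts alone left 7 higher, with 1 lower, for either compound. The list was chosen with earlier results of these data known, so these counts describe it and are not a test. By the larger of its rises with either compound, the top 3 were ATF3 (6.34 and 6.43), DDIT3, which encodes CHOP (4.55 and 4.42), and JUN (2.05 and 3.65).

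Across the 9 libraries, the genes whose log2 CPM lay closest to a member after each was centred on its own mean were searched among 11722 GENCODE genes. For PMAIP1 they were GCH1 (root mean square difference 0.076, r = 0.998) and NEDD9 (0.099, r = 0.998). For BBC3 they were CALR (0.123, r = 0.993) and TNFAIP2 (0.132, r = 0.988). For MCL1 they were LYST (0.036, r = 0.998) and TEX10 (0.042, r = 0.997), and for BCL2A1 SELK (0.168, r = 0.997) and EIF2AK3 (0.171, r = 0.995). Among the members, PMAIP1 and BCL2A1 had r = 0.994 over the 9 libraries, and PMAIP1 and BMF r = -0.872. These correlations run over 3 groups of libraries, each with its own treatment, and depth differed within and between groups. The closest genes were picked for their likeness, so a high r follows from the choice.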

How the data were processed

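Total RNA libraries of 3 groups of 3 were analysed from 1 table of counts per feature that the authors deposited without normalization. The submitters' processing notes name TopHat2, HTSeq, GRCh37 and hg19. Versions, settings and the strand option were not given in these sources. Summary entries without a gene name, left out of totals and tests, were 39.0 to 45.4% of all entries per library. Features passing filterByExpr were fitted in R 4.3.3 with edgeR 4.0.16 (TMM, quasi-likelihood, 1 mean per group, 6 residual degrees of freedom). Log CPM used a prior count of 2. SE is the log2 change over the square root of F, and intervals are at 95%. The procedure was tested on simulated data in which far fewer genes changed than were called here. Scaling under so wide a change was therefore not tested. Exon lengths and overlaps came from GENCODE 29 on GRCh38, matched by gene ID. Nothing of it enters the counts.

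The members and lists were chosen with earlier results of these data known. All 10 members are named. Other family genes tested are named, and from each further list the 3 with the largest change at a mean of at least 2 CPM. For likeness the 2 closest genes were taken. Of 8 stromal and endothelial markers 7 were matched. They summed to 9.19 to 13.4 CPM in DMSO, 5.86 to 7.09 with rakicidin A and 7.14 to 9.00 with BE-43547A1, and COL1A1 was lower with both compounds (log2 -1.12 and -0.70). Alternatives were DESeq2 1.42.0, limma-voom (limma 3.58.1), RLE factors, total counts alone, all features with a count, a fit of 6 libraries, a replicate block, and each library left out. Figures used matplotlib 3.10.9. The values of 1 gene of the transcription factor list are not reported here.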

Additional observations from a re-analysis of the deposited data

How the results depend on the processing

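Each of 9 tested members was refitted under 16 alternatives per comparison. PMAIP1, BBC3, MCL1 and BCL2A1 stayed called higher against DMSO with both compounds in all 16, and BMF stayed called lower with both. Log2 changes over these alternatives ranged from 2.43 to 2.89 and from 2.50 to 2.84 for PMAIP1, and from 3.08 to 3.55 and from 2.81 to 3.15 for BCL2A1, for rakicidin A and BE-43547A1 in that order. BCL2L1 after rakicidin A reversed to -0.30 with total counts alone, where each change shifts with the median of all features. With 1 library left out, the number of members called ranged from 7 to 8 for rakicidin A, from 6 to 7 for BE-43547A1 and from 3 to 6 for the direct comparison. The share of all features called ranged from 58.1 to 63.9%, from 65.3 to 69.3% and from 37.0 to 48.6% in that order. Correlations of deviations from the group mean ran from -0.057 to 0.122 for same-numbered libraries and from -0.097 to 0.092 for the others. Such weak values do not settle whether the replicate numbers pair the libraries. With the replicate block 7, 7 and 5 members were called in the 3 comparisons, as without it, and 14359, 15670 and 10347 features against 14455, 15738 and 10423. A leave-one-out fit that leaves 2 libraries in a group pools the spread of the others. Depth limits BIK and BMF most.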
